A study of Mus musculus with 4 samples.

Results

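The Iroquois genes Irx1, Irx2, Irx3, Irx4, Irx5 and Irx6 were followed in a table of trimethylation of histone H3 at lysine 27 (H3K27me3) in mouse embryonic fibroblasts. They were picked by symbol, and all 6 were among the 22691 listed genes and had values in both genotypes. The cells came from female C57BL6/J fetuses at stage E13.5. WT cells were Smchd1 +/+, and MD1 cells were Smchd1 MD1/MD1, which the series' design calls deficient for SmcHD1, a noncanonical SMC-family chromatin protein. For each genotype 1 ChIP library (mouse monoclonal antibody CMA323) and 1 input library without antibody were made, so there was no replicate error, and no test between genotypes was possible. Each gene had 1 log2 enrichment per genotype, and every value below is such a level or a difference of levels, MD1 minus WT, on which a 2-fold loss reads -1 and a 2-fold gain reads 1. A gene was called lower or higher at 2-fold. The family was chosen with differences at some members known, so the values are a description.

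Iroquois proteins are homeodomain transcription factors of the TALE class, which carry extra residues in the homeodomain. They were first described in Drosophila and pattern the heart, nervous system, limb and other tissues of vertebrate embryos. In the mouse they lie in a cluster on chromosome 13 (Irx1, Irx2, Irx4) and a cluster on chromosome 8 (Irx3, Irx5, Irx6), which arose by duplication, so that Irx1 pairs with Irx3, Irx2 with Irx5 and Irx4 with Irx6. H3K27me3 is laid down by Polycomb repressive complex 2 over silent developmental genes and in mammals is found mostly at CpG-rich promoters. In the coordinates of build mm9, Irx1 (13, 72095680 to 72101171), Irx2 (13, 72766426 to 72771642) and Irx4 (13, 73397945 to 73407068) spanned 1311 kb. Irx3 (8, 94322410 to 94325553), Irx5 (8, 94881695 to 94885355) and Irx6 (8, 95198188 to 95204855) spanned 882 kb. In each cluster the first gene lies on the minus strand and the other two on the plus strand. The gene intervals measured 3144 to 9124 bp, and none overlapped another listed gene.

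The upstream sequences of Irx2, Irx4 and Irx3 are shown because only these members had a matched RefSeq window. Irx2 was the member with the lowest difference, and Irx4 lay in the same cluster without a lower value. Irx3 lay in the other cluster with almost the same value in both genotypes. Each sequence is the 250 bases before the RefSeq start in build GRCm38.p6, written 5′ to 3′ along the gene, with CpG dinucleotides in capitals. RefSeq windows were matched for these 3 of the 6 members.
Irx2 (plus strand, chr13:72628570-72628819): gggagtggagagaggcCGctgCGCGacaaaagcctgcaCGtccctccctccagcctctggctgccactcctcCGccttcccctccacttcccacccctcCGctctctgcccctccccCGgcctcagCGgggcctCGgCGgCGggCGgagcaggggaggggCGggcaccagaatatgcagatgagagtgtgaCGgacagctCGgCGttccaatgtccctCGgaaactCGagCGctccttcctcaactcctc
Irx4 (plus strand, chr13:73260247-73260496): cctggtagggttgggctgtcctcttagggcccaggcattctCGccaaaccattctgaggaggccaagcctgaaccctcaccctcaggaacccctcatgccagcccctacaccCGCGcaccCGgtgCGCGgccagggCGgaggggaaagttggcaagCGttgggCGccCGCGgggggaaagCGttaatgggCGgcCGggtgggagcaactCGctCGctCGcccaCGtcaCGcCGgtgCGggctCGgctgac
Irx3 (minus strand, chr8:91801655-91801904): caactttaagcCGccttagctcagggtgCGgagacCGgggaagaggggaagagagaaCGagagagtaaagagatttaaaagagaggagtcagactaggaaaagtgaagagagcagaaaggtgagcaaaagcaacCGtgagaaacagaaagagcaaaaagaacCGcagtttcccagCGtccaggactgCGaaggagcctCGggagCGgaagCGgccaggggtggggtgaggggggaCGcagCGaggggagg
The window of Irx2 held 19 CpG, that of Irx4 22 and that of Irx3 13, against a median of 6 over 32817 RefSeq windows of the same length. As many CpG or more were found in 19.7% of windows for Irx2, 14.8% for Irx4 and 31.5% for Irx3. Among these 3, Irx2, which was called lower, had a CpG number between those of Irx4 and Irx3, which were not. Irx1, also called lower, had no matched window, and a link of CpG number to the difference was not tested. The palindrome ACANNTGT, a site bound by Iroquois proteins in Drosophila, was in none of the 3 windows and in 6.32% of all windows.

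In WT cells the family had a moderate level at 4 genes and a high level at 2. Irx3, a regulator of the ventricular conduction system, stood at 0.27, Irx5, which acts with Irx3 in the limb bud and heart, at 0.34, Irx1, expressed in the developing lung and digits, at 0.36, and Irx2, a neighbour of Irx1 with overlapping expression, at 0.54. Irx6, which acts in retinal bipolar cells, stood at 2.35 and Irx4, a gene of the ventricular myocardium, at 2.44. The lower 4 lay between percentiles 70.2 and 76.2 of the 19836 autosomal genes with both values, and Irx6 and Irx4 at percentiles 98.4 and 98.7. All 6 were above the autosomal median of -0.78. The high gene in each cluster was the last in chromosomal order, Irx4 or Irx6.

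In MD1 cells the chromosome 13 cluster split, whereas every chromosome 8 gene had a value above its WT level. Irx2 had a level of 0.54 in WT and of -2.56 in MD1, which was 8.57-fold lower (difference -3.10). Irx1 had a level of 0.36 in WT and of -1.31 in MD1, which was 3.18-fold lower (difference -1.67). In bulk chromatin, less mark per cell and fewer cells with the mark cannot be told apart. Irx2 went from percentile 76.2 of autosomal genes to percentile 30.5 and Irx1 from 72.3 to 44.7, both below the autosomal MD1 median of -0.90. Irx4, with 2.44 in WT and 2.95 in MD1, differed by 0.51 the other way. On chromosome 8, Irx3 stood at 0.27 and 0.40, a difference of 0.13. Irx5 stood at 0.34 and 1.06, a difference of 0.73, the highest of the family and within the 2-fold limit. Irx6 stood at 2.35 and 2.81, a difference of 0.46. In MD1 cells the 6 genes thus ranged from -2.56 to 2.95, against 0.27 to 2.44 in WT cells.

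**Figure D1:**
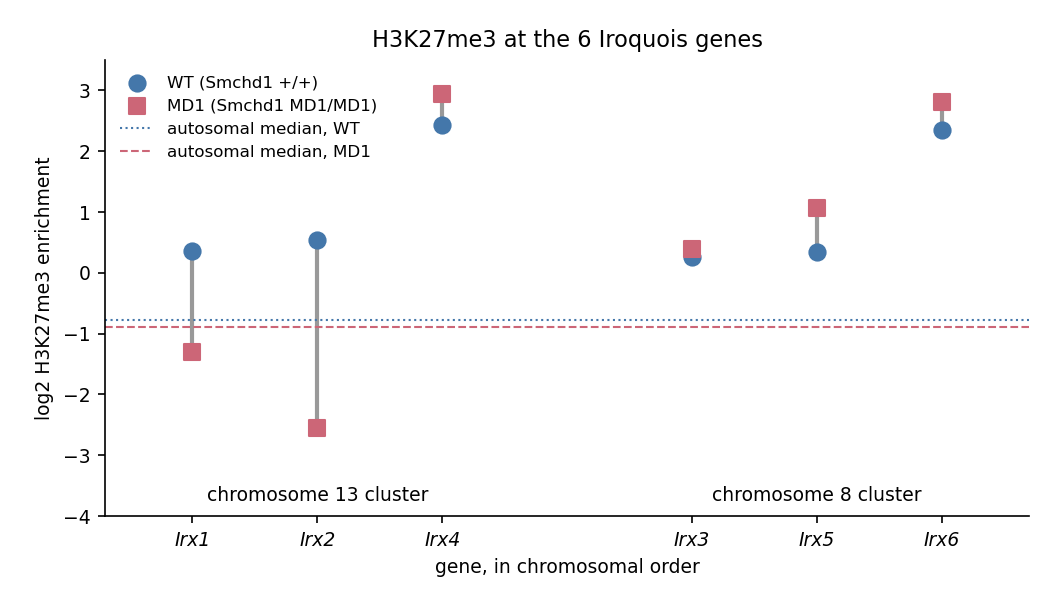
Log2 H3K27me3 enrichment (y axis) of the 6 Iroquois genes (x axis, in chromosomal order within each cluster) in WT (blue circles) and MD1 cells (red squares), 1 value per gene and genotype, with no error bars since there was 1 library of each kind. Irx1 and Irx2 lay at 0.36 and 0.54 in WT and at -1.31 and -2.56 in MD1, whereas the MD1 value of the other 4 genes was above the WT value; horizontal lines mark the autosomal medians.

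At 2-fold, 2 of the 6 genes were called lower and none higher. Adding 1 to the linear ratio ended the call at Irx1 (-0.70) and left that at Irx2 (-1.07). Of all autosomal genes 20.4% were lower and 1.61% higher, but most of the lower ones had little mark in WT cells. Among the 4040 autosomal genes with a WT level from 0 to 1, the range that holds Irx1, Irx2, Irx3 and Irx5, 2.52% were lower and 1.11% higher. Among the 782 of these whose length lay in the range of the members, 3.96% were lower and 2.17% higher, with 90% of the differences between -0.95 and 0.74. Irx1 and Irx2 lay below this range, and Irx3 and Irx5 within it. For Irx4 and Irx6 the like group was the 300 autosomal genes of these lengths with a WT level of 2 or more. Of these, 1.67% were lower and 0.333% higher, and 90% lay between -0.70 and 0.67. Both genes lay within that range. Among the 3030 autosomal genes with a WT level of 1 or more, whatever their length, 2.41% were lower and 0.957% higher.

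Among the 7070 autosomal genes with a WT level of at least 0, 3 had a lower difference than Irx2 and 43 had a lower difference than Irx1. The 3 were the insulin gene Ins1 (-3.70), the odorant receptor gene Olfr968 (-3.12) and the testis-specific kinase gene Tssk2 (-3.12), with intervals of 1136, 1027 and 1388 bp against 5217 bp for Irx2. The values take the form of ratios of whole numbers times a constant, and only the reduced form of each ratio can be read off, so the number of reads is unknown. In reduced form the ratio at Irx2 was 75 to 53 in WT and 4 to 23 in MD1, so its MD1 value may rest on few ChIP reads. At Irx1 it was 76 to 61 in WT and 33 to 80 in MD1. The MD1 ratio was 2 to 9 at Ins1, 7 to 11 at Olfr968 and 2 to 15 at Tssk2.

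**Figure D2:**
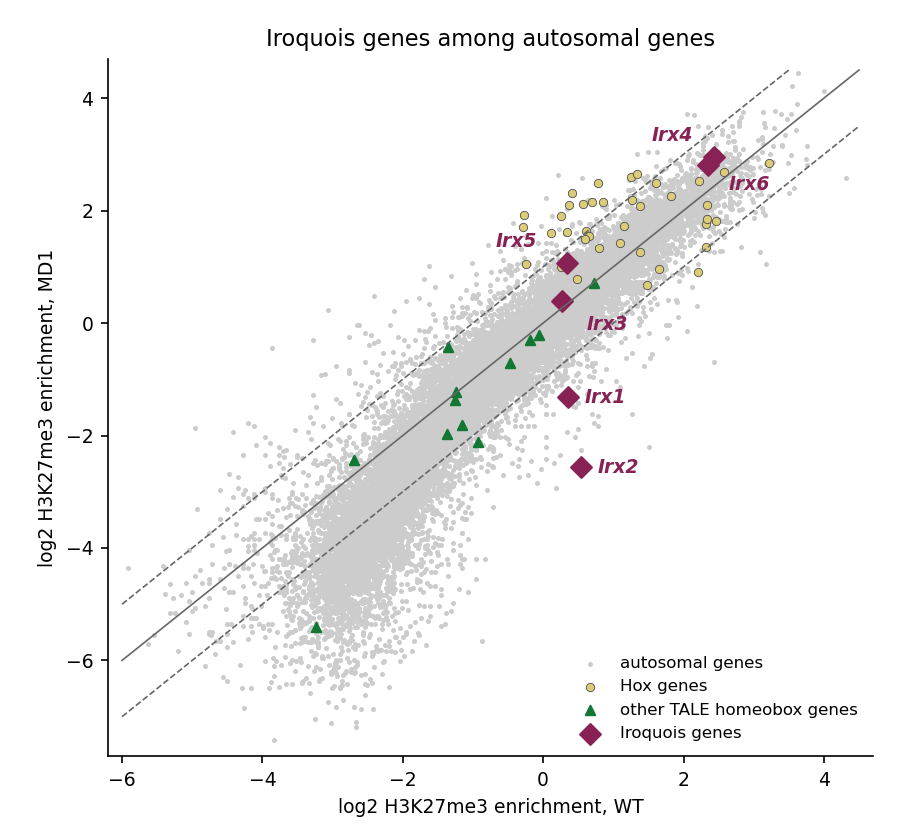
Log2 H3K27me3 enrichment in MD1 (y axis) against WT (x axis) for 19836 autosomal genes (grey), with Iroquois genes (purple diamonds), Hox genes (yellow) and other TALE homeobox genes (green triangles); the solid line marks equal values and dashed lines a 2-fold difference. Irx1 and Irx2 lie below the lower dashed line, and the other 4 Iroquois genes between the lines.

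The clusters had like levels in WT cells and unlike levels in MD1 cells. The median over 3 genes was 0.54 on chromosome 13 and 0.34 on chromosome 8 in WT, a difference (chromosome 8 minus 13) of -0.21. In MD1 it was -1.31 and 1.06, a difference of 2.37, or 1.73 with means in place of medians. The median of the MD1 minus WT difference was -1.67 on chromosome 13 (range -3.10 to 0.51) and 0.46 on chromosome 8 (range 0.13 to 0.73). These ranges overlap because of Irx4, and 3 genes of a cluster are not replicates.

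The paralog pairs showed the same split by position. In WT cells the chromosome 8 gene of each pair was slightly below its chromosome 13 partner, by -0.095 for Irx3 and Irx1, -0.21 for Irx5 and Irx2 and -0.089 for Irx6 and Irx4. Likeness in WT did not single out the pairs, since Irx5 and Irx1, which are no pair, differed by -0.024. In MD1 cells Irx3 was above Irx1 by 1.70, or 3.26-fold, and Irx5 above Irx2 by 3.62, or 12.3-fold. Irx6 and Irx4 still differed by only -0.14. The differences between genotypes therefore parted by 1.80 in the first pair and 3.83 in the second, and by -0.048 in the third.

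The lower values on chromosome 13 were found at some loci of the cluster and not at others. Gm20554, a long noncoding RNA gene that starts beside Irx2 on the opposite strand, had a level of -0.026 in WT and of -2.59 in MD1 (difference -2.57). Its interval ends 413 bases before that of Irx2, and in GRCm38.p6 the 300-base RefSeq windows around both starts share 245 bases, so the Irx2 sequence above is in large part the promoter of both. The Gm20554 ratio was 61 to 64 in reduced form in WT and 11 to 65 in MD1. The next gene toward Irx4, the noncoding RNA gene D730050B12Rik, had a level of 1.29 in WT and of 1.05 in MD1 (difference -0.24). Next to Irx4, 4930555K05Rik stood at 0.087 and -0.20, a difference of -0.28. Irx1 lay 665 kb before Irx2, with no other listed gene but Gm20554 between them. On its other side no listed gene lay within 1 Mb, and the nearest, 8030423J24Rik, was 1072 kb away.

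**Figure D3:**
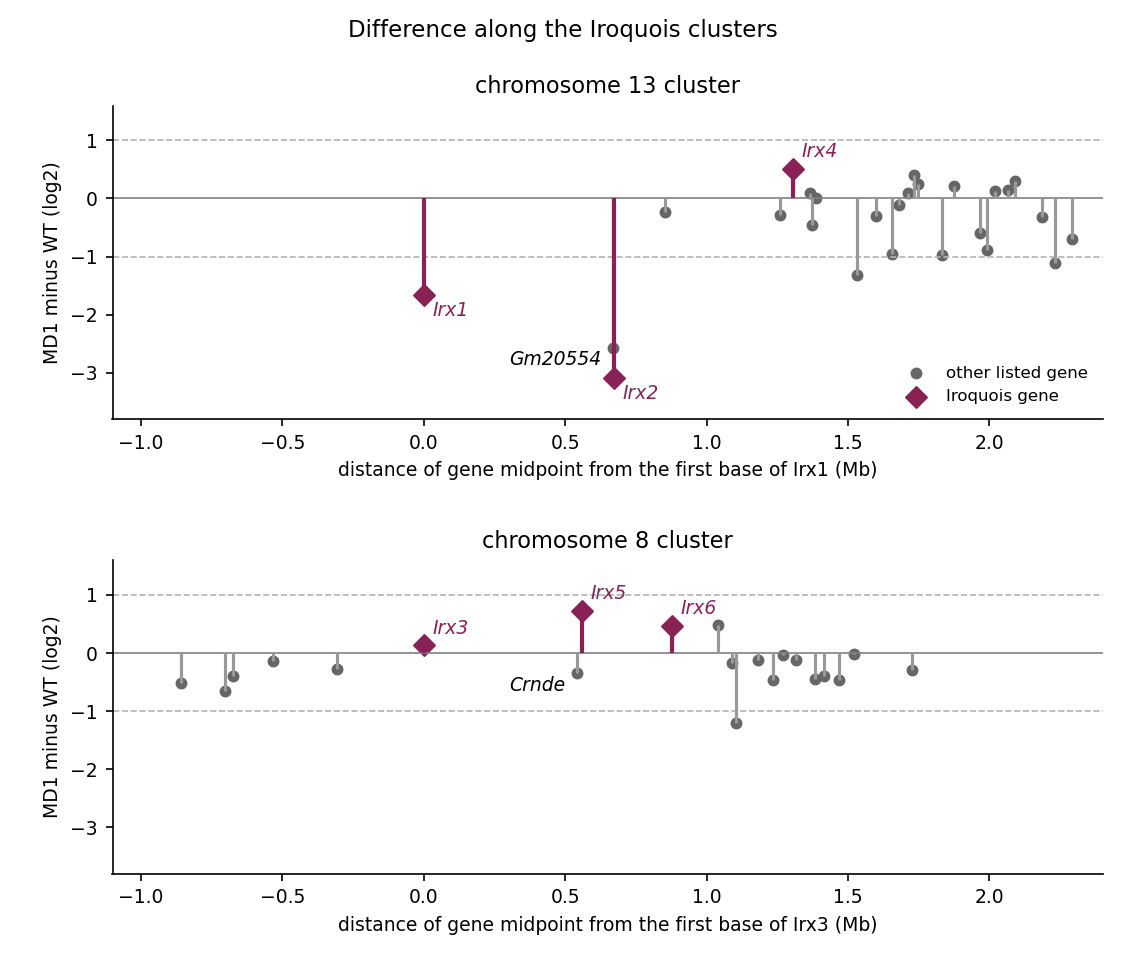
Difference in log2 H3K27me3 enrichment, MD1 minus WT (y axis), of each listed gene with values within 1 Mb of the chromosome 13 cluster (top) and the chromosome 8 cluster (bottom), by distance of its midpoint from the first base of Irx1 or Irx3 (x axis, Mb); purple diamonds are Iroquois genes, grey circles other genes, and dashed lines mark 2-fold. Irx2 (-3.10) and the adjacent Gm20554 (-2.57) have the lowest values in the top panel, and no Iroquois gene in the bottom panel is below 0.

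Beyond the cluster on chromosome 13, no gene within 1 Mb that had a WT level above 0 was called lower. Within 1 Mb of either end, 23 other genes had values, with a median difference of -0.28 (the autosomal median was -0.27). Of these, 3 were called lower and none higher, against 20.4% and 1.61% of all autosomal genes. The 3 were Gm20554, the phospholipid acyltransferase gene Lpcat1 (from -2.17 to -3.50) and the exocyst subunit gene Exoc3 (from -2.25 to -3.36). Against autosomal genes of like mean level and length their differences became -0.35 and -0.098, whereas that of Gm20554 was -2.44. The dopamine transporter gene Slc6a3 stood at 1.20 and 0.89, the amino acid transporter gene Slc6a18 at 1.31 and 1.41, and Tppp, encoding a tubulin polymerization protein, at 1.22 and 1.37. Slc9a3, a sodium-proton exchanger gene, stood at 1.21 and 0.89, Slc6a19 at 0.83 and 1.24, its antisense gene Slc6a19os at 1.26 and 1.52, and Zdhhc11 at 0.99 and 1.12. Ndufs6, a mitochondrial complex I gene 50.3 kb past Irx4, stood at -2.18 and -2.09, so the high level of Irx4 did not extend to it.

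At the chromosome 8 end the high level of Irx6 was likewise not found at the next listed gene. Bases between genes have no value here, so where the mark ends is not known. Mmp2, a matrix metalloproteinase gene 146 kb past Irx6, stood at -1.08 in WT and -0.60 in MD1. On the other side Fto, an RNA demethylase gene 130 kb before Irx3, stood at -1.05 and -1.34. Crnde, a long noncoding RNA gene that starts beside Irx5 on the opposite strand, 1675 bases away, stood at -0.23 and -0.58, a difference of -0.35. Its difference was thus of the other sign from that of Irx5 (0.73), whereas Gm20554 and Irx2 were both called lower. The interval of Crnde measured 30090 bp and that of Gm20554 5099 bp, so the values of these neighbours cover unlike lengths. The 18 other genes within 1 Mb had a median difference of -0.32. Of these, 1 was called lower and none higher, against 20.4% and 1.61% of all autosomal genes. The gene called lower was Capns2, a calpain subunit gene (from -0.25 to -1.45), whose interval lies inside that of Lpcat2. The noradrenaline transporter gene Slc6a2 was the neighbour there with a level of at least 1, at 1.04 in WT and 0.92 in MD1.

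Most other TALE homeobox genes were below 0 in both genotypes. Of 12, which encode Meis, Pbx, Pknox and Tgif factors and Mkx, 1 was above 0 in both genotypes, Pknox2 (0.73 and 0.71). This compares with 4 of the 6 Iroquois genes and 6297 of all 19836 autosomal genes, so most autosomal genes were not above 0 in both either. The median of the 12 TALE genes was -1.20 in WT and -1.29 in MD1. Their median difference was -0.13, against 0.30 for the Iroquois genes and -0.27 for all autosomal genes. At 2-fold, 2 of the 12 were lower, against 20.4% of all autosomal genes. They were the repressor gene Tgif1 (from -3.24 to -5.41) and the Hox cofactor gene Pbx2 (from -0.93 to -2.11). Meis1 differed the other way within the limit (-1.35 and -0.43), and Pbx3 stood at -1.15 and -1.82. Against genes of like level and length no TALE gene was lower at 2-fold, with -0.51 for Tgif1 and -0.99 for Pbx2. On this scale 2 were higher, Meis1 (1.13) and Tgif2 (1.07), while of all 19836 autosomal genes 676 were lower and 627 higher. The differences of Irx1 and Irx2 were -1.59 and -3.02 on this scale. Mkx, a tendon regulator and the closest relative of the Iroquois genes, stood at -0.19 and -0.30.

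Hox genes, another clustered homeobox family, had a median of 1.15 in WT and 1.85 in MD1. Of 39, 1 was lower and 15 higher, against 20.4% and 1.61% of all autosomal genes. The shares were 2.41% and 0.957% at a WT level of 1 or more, and 2.52% and 1.11% from 0 to 1. Hox genes had WT levels from -0.29 to 3.22, so neither class holds them all. Against genes of like level and length 2 were lower and 14 higher, while of all 19836 autosomal genes 676 were lower and 627 higher on that scale. The differences of the Hox genes ran from -1.30 to 2.20, so they went both ways, with a median of 0.74. The difference of Irx5 was 0.73. Their MD1 levels ran from 0.68 to 2.85, so that no Hox gene stood as low in MD1 as Irx1 or Irx2. Genes of the Polycomb repressive complex 2 itself had little mark, with medians of -2.35 and -3.42 over 10 autosomal members. At 2-fold, 5 were lower and none higher. Against genes of like level and length 1 was lower, and their median difference was 0.0019.

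In the plane of the WT and MD1 levels, which rests on 2 values per gene, the autosomal gene nearest to Irx1 was Cbx8, encoding a Polycomb repressive complex 1 subunit, at 0.31 in WT and -1.29 in MD1 (distance 0.056). The nearest to Irx2 was Foxc2, a forkhead factor gene of mesenchyme, at 0.55 and -2.25 (distance 0.30). No autosomal gene lay within 0.25 of Irx2, and 9 lay within 0.25 of Irx1, whereas 747 lay that near to Irx3 and 124 to Irx5. Irx4 had 50 such genes and Irx6 had 71. The nearest were Ccr2 for Irx3, Dmrt3 for Irx4, Gm4871 for Irx5 and Prph for Irx6, at distances of 0.0074 to 0.041.

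The label of the cells was set against marker genes, for which a low mark is no measure of expression. All 12 fibroblast markers were below 0 in both genotypes. They had a median of -2.90 in WT cells and one of -4.24 in MD1 cells. The highest MD1 values were those of Thy1 (-1.21) and Twist1 (-2.42). Irx2 in MD1 (-2.56) was below both and just below Pdgfra (-2.53), but above all the other fibroblast markers and above the list median. Irx1 (-1.31) was below Thy1 but above the other 11 markers. Epithelial markers (medians 1.30 and 1.15 over 4 genes) and neural markers (medians 1.01 and 1.01 over 4 genes) were above 0 in all cases. Endothelial markers had medians of -0.060 and 0.084 (4 genes) and haematopoietic markers -0.071 and -0.25 (3 autosomal genes). No list but the fibroblast and haematopoietic ones held a gene called lower, 7 of 12 and 1 of 3, against 20.4% of all autosomal genes. Against genes of like level and length no fibroblast marker was lower and 1 was higher, while of all 19836 autosomal genes 676 were lower and 627 higher. The median difference of the fibroblast list turned from -1.31 to 0.15. Smchd1 stood at -2.44 and -3.47, which does not check the genotype, since the mark is not the gene's product.

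**Figure D4:**
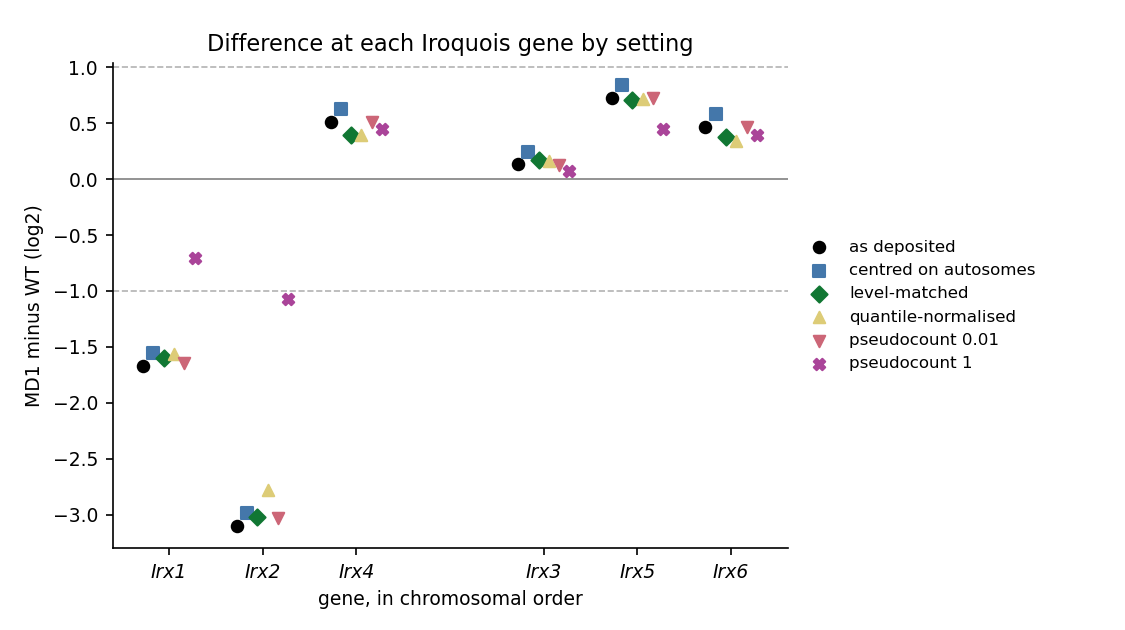
Difference in log2 H3K27me3 enrichment, MD1 minus WT (y axis), of each Iroquois gene (x axis) as deposited and under 5 other scalings (symbols); dashed lines mark 2-fold. Each gene kept the sign of its difference under the scalings shown, though adding a constant to the linear ratio cannot change a sign. After adding 1 to the linear ratio Irx1 moved from -1.67 to -0.70, within the limit, and Irx2 from -3.10 to -1.07.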

How the data were processed

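H3K27me3 was measured by ChIP-seq in 4 libraries, a ChIP and an input for WT and for MD1 cells. The authors deposited 1 table with a log2 enrichment per gene and genotype, per the file headers. The submitters' processing notes name build mm9. What the enrichment was divided by, and the aligner, counting and filters, are not given in the sources used. Nearly every deposited value (99.98% in WT and 99.95% in MD1, relative tolerance 1e-12) equalled log2 of a fraction of integers up to 20000, shifted by 1 constant per genotype. Depth is unknown, so no interval is given.

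Starts in the table are 0-based, as the RefSeq gene length equals end minus start for 4 of 6 members; printed starts are 1-based. Of 22691 genes, 20606 had both values, 19836 of them autosomal. The difference was MD1 minus WT. MD1 values were more widely spread (slope 1.25 on WT over autosomal genes), so a level-matched difference was also computed: the gene's difference less the median one of 500 autosomal genes closest to it in mean level and of its length quartile. Quantile normalisation, centring, pseudocounts of 0.01 and 1, a filter that dropped mean levels under the 25th percentile and limits of 1.5-fold and 3-fold were the other settings. The level classes used as background were chosen after seeing the data. Calculations used Python 3.11.15, numpy 2.4.6 and pandas 2.3.3 and were tested on simulated data.

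The members and lists were chosen with earlier results of these data known. Named genes were the 6 members, flanking genes and genes within 1 Mb with a level of at least 1 or a 2-fold difference, up to 4 of the TALE and Hox lists by absolute difference, and the gene nearest to each member. Pknox2, Mkx, 4930555K05Rik, Crnde, 8030423J24Rik, Tgif2, Thy1, Twist1, Pdgfra and the genes with lower differences than Irx2 were added after their values were seen.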

Additional observations from a re-analysis of the deposited data

How the results depend on the processing

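With 1 library of each kind, no result could be checked against a replicate, and no library could be left out. No paired analysis was possible because each group holds 1 library. Of 177 values recomputed under the other settings, 147 moved by less than 1.5-fold and 30 by more. Many of the 147 could not move. Centring cancels out of the pair and cluster contrasts, and the filter leaves member, pair and cluster values as they are. The differences of the 6 Iroquois genes kept their signs under centring, level matching and quantile normalisation. A pseudocount or the filter cannot change a sign. A pseudocount of 1 on the linear ratio, which by construction compresses ratios near or below 1, moved the most: Irx1 to -0.70, Irx2 to -1.07, the MD1 gap of Irx3 over Irx1 to 0.72 and of Irx5 over Irx2 to 1.40, the parting of these pairs to 0.77 and 1.52, the MD1 gap between cluster medians to 1.14 and the gap between their differences to 1.10. It left 1 Iroquois gene lower, 0 TALE and 0 Hox genes lower, and 10 Hox genes higher. With means the MD1 gap between clusters was 1.73. At a limit of 1.5-fold, 2 Iroquois genes were lower and 1 (Irx5) higher, and 4 TALE genes were lower and 1 higher. Of the Hox genes, 5 were lower and 21 higher at that limit. At 3-fold, 1 TALE and 0 Hox genes were lower and 6 Hox genes higher. The level-matched and the quantile-normalised differences each gave 0 TALE genes lower and 2 higher, and 2 Hox genes lower and 14 higher. Centring gave 1 TALE gene higher and the filter 1 lower. The share of neighbours called lower was 26.3% (10 of 38, with 1 called higher) in a 2 Mb window on chromosome 13, against 3 of 23 in the 1 Mb window. On chromosome 8 it was 9.09% (0.5 Mb) and 10.5% (2 Mb), against 1 of 18. Of all autosomal genes 20.4% were lower at 2-fold with the values as deposited. The share of all autosomal genes was not computed at the other limits or with a pseudocount, centring or the filter. The counts at those settings thus have no background beside them.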
